A study of Homo sapiens with 42 samples.

Results

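Histone genes code for the proteins around which DNA is wound, and their mRNAs were followed here in cell lines of squamous carcinoma of the head and neck (HNSCC) treated with cetuximab (CTX), an antibody against the epidermal growth factor receptor (EGFR). The genes were chosen by symbol, as all genes named H1-, H2AC, H2AZ, H2AX, H2AJ, H2BC, H3C, H3-3 or H4C, and 55 of the 19775 genes measured met that rule. Each gene was read from the probe set, among those annotated to that gene alone, that was selected on its highest mean over all 42 arrays. Of the 55 genes, 43 were replication-dependent histone genes (6 H1, 8 H2A, 14 H2B, 7 H3 and 8 H4 genes), 8 were histone variant genes, and 4 were an antisense gene and pseudogenes. The family was picked with its CTX changes on these arrays in view, so the counts of histone genes that rose or fell are given as a description and nothing is supported with them.

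The arrays carried RNA of 14 groups of 3 samples. Cells of the lines SCC25, SQ20B, SCC61, SCC047, SCC090 and 93VU147T were exposed to 100 nM CTX for 24 h, and the control arm of each was labelled as having no treatment, while the study's methods name phosphate-buffered saline. SCC25, SQ20B and SCC61 are free of human papillomavirus (HPV-negative) and SCC047, SCC090 and 93VU147T are HPV-positive, a status that comes from the published text and not from the labels. A further HNSCC line, SCC1, had CTX arrays only, and HaCaT, an immortalized keratinocyte line, had control arrays only, so neither entered a test of CTX. The labels give a survival under CTX for each line. The study's methods describe survival as colony area after 7 days, relative to control. The labelled values ran from 7.61% in SCC25 over 28.65% in SQ20B, 31.2% in SCC047, 35.57% in 93VU147T and 39.07% in SCC090 to 40.16% in SCC61. Each line is a single established culture and stands for 1 tumor, and no source used here says whether replicates were grown apart, so the p-values rest on how far the arrays of a group lie from each other, which may be technical.

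Chromatin is built from repeating units in which DNA wraps around an octamer of the core histones H2A, H2B, H3 and H4, while the linker histone H1 binds where DNA enters and leaves. The clustered histone genes are transcribed mainly in S phase under the coactivator NPAT, and their mRNAs normally end in a stem-loop bound by SLBP in place of a poly(A) tail. Some of these genes can also give polyadenylated transcripts, which are known from differentiating and non-dividing cells, whereas variant genes such as H2AZ1, H2AZ2, H3-3A and H3-3B give polyadenylated mRNA through the cell cycle, and H2AX gives both forms. The labelling kit used for these arrays primes cDNA synthesis with oligo-dT, so that RNA with a poly(A) tail is the RNA it is built to copy.

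The values were log2 expression values as deposited, without a count or a depth, and the precision of each comparison is limited by 3 arrays per group. Array medians over all 54675 probe sets lay between 5.09 and 5.16, and pairs of arrays correlated at 0.8868 to 0.9986 over all genes. The squamous markers KRT5 and SFN averaged 10.6 to 13.5 and 12.8 to 13.6 in the groups, KRT14 spanned 4.85 to 14.2, the leukocyte marker PTPRC stayed at 3.87 to 4.30 and the endothelial marker CDH5 at 3.63 to 4.07. Other leukocyte genes lay higher, with CD3E at 5.17 to 5.66, CD14 at 4.44 to 7.87 and LAPTM5 at 5.16 to 7.51. So did the endothelial genes PECAM1 (5.73 to 6.45) and VWF (5.04 to 6.38). The fibroblast genes COL1A1 (5.46 to 9.92) and LUM (2.93 to 9.34) varied widely between groups, while PDGFRB stayed at 5.13 to 5.48. Array file names placed 35 arrays in a first batch, the SCC1 arrays and replicate 3 of the SQ20B control in a second batch of 4, and the HaCaT arrays in the last batch of 3. Within the first batch the file numbers ran through all control arrays before all CTX arrays, so the order of hybridization and the treatment cannot be told apart. The lines are bulk cultures, in which a smaller share of cells in S phase and less histone mRNA per cell cannot be told apart.

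Of the replication-dependent genes, 40 lie on chromosome 6, in the clusters where H2A and H2B genes often face each other across a shared promoter, H2BC21 and H2AC25 lie on chromosome 1, and H2BC12L lies on chromosome 21. RefSeq promoters (build GRCh38.p14) matched 48 of the 55 genes, and the 250 bases before the start site were searched on both strands for the CAAT box (letters CCAAT), the TATA box (letters TATAAA), the octamer ATTTGCAT that is known from H2B promoters, and the E2F-type strings TTTCGCGC and TTTGGCGC. Windows of H2AC6, H2BC21, H4C8 and H2AX are shown because the CTX changes described below turn on these genes, with matches to the first 3 motifs in capitals.

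H2AC6 (chr6:26123922-26124171, plus strand): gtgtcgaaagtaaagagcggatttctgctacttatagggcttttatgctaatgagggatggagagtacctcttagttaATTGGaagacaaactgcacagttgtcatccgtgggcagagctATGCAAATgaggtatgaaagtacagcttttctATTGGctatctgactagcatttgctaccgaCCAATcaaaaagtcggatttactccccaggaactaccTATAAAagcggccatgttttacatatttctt
H2BC21 (chr1:149886683-149886932, minus strand): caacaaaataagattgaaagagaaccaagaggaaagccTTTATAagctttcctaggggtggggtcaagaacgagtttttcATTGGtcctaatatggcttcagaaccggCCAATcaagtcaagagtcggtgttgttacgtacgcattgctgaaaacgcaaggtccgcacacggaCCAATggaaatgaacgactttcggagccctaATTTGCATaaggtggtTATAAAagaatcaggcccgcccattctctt
H4C8 (chr6:26285535-26285784, minus strand): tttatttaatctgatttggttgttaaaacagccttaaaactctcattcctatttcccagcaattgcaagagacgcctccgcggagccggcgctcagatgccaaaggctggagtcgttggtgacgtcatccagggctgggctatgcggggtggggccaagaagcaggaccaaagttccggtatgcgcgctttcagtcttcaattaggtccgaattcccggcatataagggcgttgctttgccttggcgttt
H2AX (chr11:119095466-119095715, minus strand): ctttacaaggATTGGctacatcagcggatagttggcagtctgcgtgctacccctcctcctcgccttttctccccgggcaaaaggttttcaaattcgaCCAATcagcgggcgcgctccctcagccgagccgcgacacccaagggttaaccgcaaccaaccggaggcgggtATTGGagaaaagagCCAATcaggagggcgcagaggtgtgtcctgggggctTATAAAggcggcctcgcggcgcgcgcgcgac

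The H2AC6 window shares 245 bases with that of H2BC4, which is read in the opposite direction, so these are a divergent pair with a common promoter, and the matches of such pairs count for both genes. CCAAT stood in 35 of 40 replication-dependent promoters (87.5%) and in 7 of 8 variant promoters, against 33.0% of the 27305 promoters of the same length. TATAAA stood in 67.5% of the replication-dependent promoters and 37.5% of the variant promoters, against 11.1% of all. The octamer was present in 16 of the 40 (40.0%), namely in 6 of 8 H2A and 10 of 13 H2B promoters and in no H1, H3, H4 or variant promoter, against 1.66% of all promoters. The E2F-type strings stood in 22.5% of the replication-dependent promoters and in 0.996% of all. None of the searched motifs was present in the H4C8 window, and the H2AX window held 4 CCAAT matches and 1 TATAAA match.

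**Figure D1:**
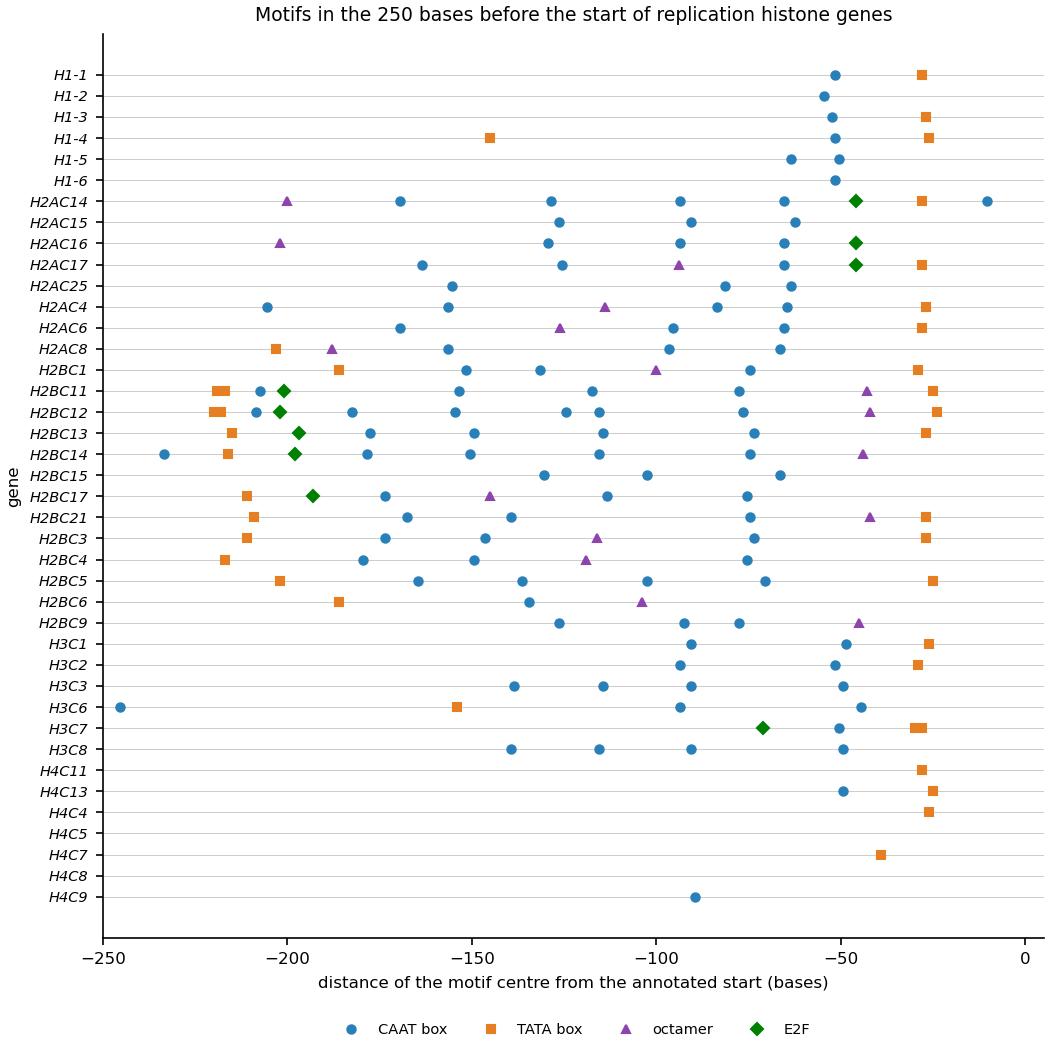
Positions of promoter motifs in the 250 bases before the start site of 40 replication-dependent histone genes (one line each), with the distance of the motif's centre from the start site in bases on the horizontal axis and a mark for each match, by motif. TATA boxes lay at a median of -29.0, CAAT boxes at -96.5, octamers at -109.0 and E2F-type strings at -193.0 bases.

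The central comparison was CTX against control within each line, tested with limma over all genes. In the mean of the 6 lines, 16 of the 43 replication-dependent genes were higher after CTX (37.2%) and 3 were lower (6.98%), beside 22.8% of all genes higher and 23.1% lower. Their median change was 0.07 on the log2 scale, against -0.02 for all genes. The members that were higher came mostly from 3 families, with 7 of 14 H2B, 4 of 8 H2A and 4 of 8 H4 genes, while 1 of 7 H3 genes and none of 6 H1 genes was higher (0 also at an unadjusted p under 0.05). H1-4, which codes for a linker histone, was lower by 0.31 (SE 0.09) with an adjusted p of 0.00367, and its mean became -0.23 (adjusted p = 0.0665) without 93VU147T. The remaining genes that were lower in the mean were H2AC25 and H2BC11, whose change of -0.12 (adjusted p = 0.0465) passed in 13 of the 36 fits that each left out 1 array.

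The lines differed in how many of these genes moved. In 93VU147T, 21 of 43 replication-dependent genes were higher (48.8%, against 15.8% of all genes) and 3 were lower (6.98%, against 18.8%). In SCC25, 14 were higher (32.6%, against 8.66%) and 2 were lower (4.65%, against 7.3%). In SCC047, 13 were higher (30.2%, against 17.3%) and 0 were lower by limma at an adjusted p under 0.05 (2 at an unadjusted p under 0.05), against 19.0% of all genes. These 3 lines thus had shares of higher histone genes above, and shares of lower ones below, those of all genes.

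SQ20B and SCC61 went the other way in the share of genes that were higher. In SQ20B, 5 of 43 were higher (11.6%, against 18.4% of all genes) and 1 was lower (2.33%, against 14.9%). In SCC61, 6 of 43 were higher and 6 lower, beside 24.4% of all genes higher and 19.8% lower. In SCC090, limma called 0 of the 43 in either direction, beside 0.516% of all genes higher and 0.885% lower, and at an unadjusted p under 0.05 it gave 2 higher and 1 lower. The median change of the 43 genes was 0.11 in SCC25, -0.06 in SQ20B, -0.01 in SCC61, 0.09 in SCC047, 0.03 in SCC090 and 0.23 in 93VU147T. The counts moved with the scaling of the arrays. Each array was centred on its median over the 19775 genes, which shifted the median change of all genes by -0.11 in SCC61. The counts of higher and lower members then became 10 and 2 in SCC25, 5 and 5 in SQ20B, 3 and 12 in SCC61, 16 and 0 in SCC047 and 22 and 2 in 93VU147T. The share of higher genes among all called genes moved with the centring, to 39.2% centred against 55.2% as deposited in SQ20B, 36.9% against 55.2% in SCC61, 66.6% against 47.7% in SCC047 and 63.4% against 45.7% in 93VU147T. Under quantile normalization the counts were 12 and 1 in SCC25, 5 and 1 in SQ20B, 4 and 7 in SCC61, 11 and 0 in SCC047 and 19 and 2 in 93VU147T.

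Single arrays moved some of these counts. Without replicate 2 of the SQ20B control, 8 replication-dependent genes were higher in SQ20B, and without replicate 1 or replicate 3 of that control 3 were lower. No gene was lower in SCC25 without replicate 2 of its CTX arm or replicate 2 of its control, and 3 were lower in SCC047 without replicate 2 of its CTX arm.

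**Figure D2:**
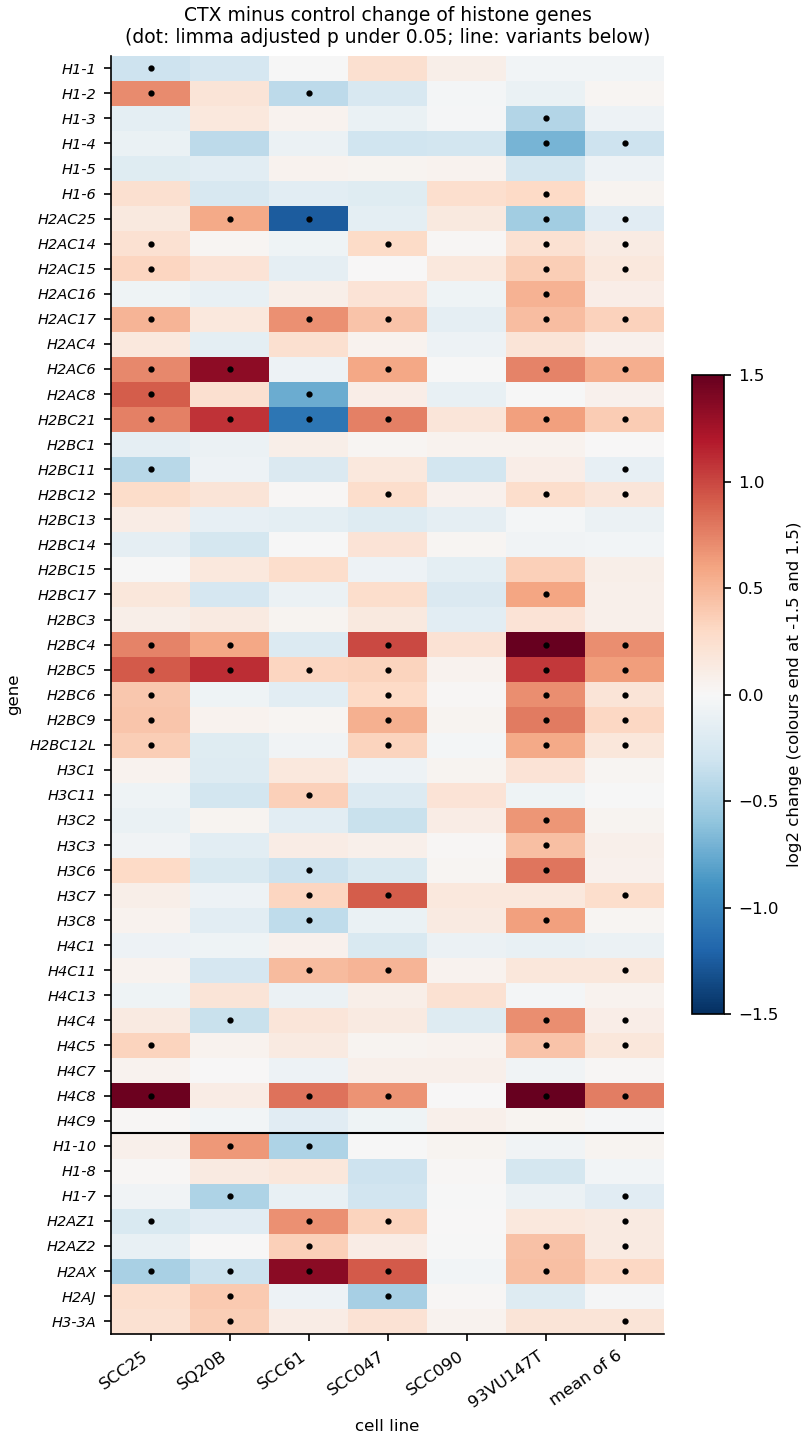
CTX minus control change on the log2 scale (color) for the 51 protein-coding histone genes (one strip each) in the 6 lines and in their mean. SCC090 is pale throughout, and the strongest rises are those of H2BC4 (1.85) and H4C8 (1.53) in 93VU147T, whereas H2AC25 (-1.24) and H2BC21 (-1.09) in SCC61 are the strongest falls.

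A group of 10 replication-dependent genes was higher after CTX in 3 or more lines (23.3% of 43, against 9.85% of all genes), and none was lower in 3 or more, against 7.14% of all genes. These were H2AC6, H2AC14, H2AC17, H2BC4, H2BC5, H2BC6, H2BC9, H2BC12L, H2BC21 and H4C8, of which H4C8 codes for the core histone H4 and the others for H2A or H2B proteins. H2AC14, H2BC5, H2BC6, H2BC9 and H2BC12L were read from probe sets of the type that may cross-hybridize. H2AC6 and H2BC21 were read from the type that matches related transcripts. The same transcripts may therefore be counted more than once among the 10. Of the 43 genes, 12 passed in no line (27.9%, against 28.6% of all genes), and 7, H2BC21 among them, were higher in some line and lower in another (16.3%, against 25.9%). H2AC14, H2BC6, H2BC9 and H2BC12L passed in exactly 3 lines, and all but H2BC9 drop out of the group of 10 when certain single arrays are left out. The SCC25 call held in 0 of 6 such fits for H2AC14 and in 1 of 6 for H2BC12L, whose SCC047 call held in 3 of 6. The SCC047 call of H2BC6 held in 4 of 6.

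H4C8 showed the largest mean change of the family, 0.77 (SE 0.06, adjusted p = 1.6e-12). In SCC25 it read 8.38, 8.25 and 8.32 after CTX, against 6.94, 6.83 and 6.76 in control. In 93VU147T it read 7.86, 7.75 and 7.86 after CTX, against 6.26, 6.25 and 6.37 in control. The arms were far apart in both lines, with changes of 1.47 (SE 0.14, 2.77-fold, adjusted p = 4.14e-09) in SCC25 and 1.53 (SE 0.14, 2.89-fold, adjusted p = 2.98e-10) in 93VU147T. At a lower level, H4C8 read 4.80, 5.26 and 4.95 after CTX in SCC61, against 4.17, 4.16 and 4.24 in control, a change of 0.81 (adjusted p = 8.04e-06). It read 4.95, 5.15 and 5.51 after CTX in SCC047, against 4.50, 4.49 and 4.59 in control, a change of 0.68 (adjusted p = 0.000167). The arms overlapped in the remaining lines, with changes of 0.12 in SQ20B (adjusted p = 0.559) and 0.01 in SCC090, where the CTX arrays read 6.88, 6.65 and 6.50 and the control arrays 6.88, 6.54 and 6.58.

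H2BC4, an H2B gene, gave the largest change of any member in any line. In 93VU147T it read 6.88, 6.65 and 6.92 after CTX, against 4.70, 5.07 and 5.12 in control, and was 3.62-fold higher (log2 change 1.85, SE 0.11, adjusted p = 1.16e-13). In SCC047 it read 5.12, 5.05 and 5.15 after CTX, against 4.12, 4.00 and 4.24 in control (change 0.99, adjusted p = 1.96e-08). In SCC25 the CTX arrays read 6.93, 6.99 and 6.92 and the control arrays 6.40, 6.19 and 6.02 (change 0.74, adjusted p = 1.18e-05). All CTX arrays of these lines lay above all control arrays. In SQ20B the CTX arrays read 4.76, 4.56 and 4.58, against 3.91, 4.10 and 4.13 in control (change 0.58, adjusted p = 0.0001). The arms overlapped in SCC61, where the change was -0.20 (adjusted p = 0.141), and in SCC090 all CTX arrays (4.70, 4.60 and 4.54) lay above the control arrays (4.49, 4.36 and 4.33) by a change that did not pass (0.22, adjusted p = 0.441).

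H2AC6, the H2A gene that faces H2BC4, had its largest change in another line. In SQ20B it read 8.70, 8.45 and 8.62 after CTX, against 7.17, 7.37 and 7.20 in control, and was 2.54-fold higher (change 1.35, SE 0.10, adjusted p = 6.38e-12). In SCC25 it read 10.94, 10.74 and 10.87 after CTX, against 10.28, 10.10 and 10.01 in control (change 0.72, adjusted p = 5.52e-06). In 93VU147T it read 10.60, 10.61 and 10.55 after CTX, against 9.91, 9.91 and 9.72 in control (change 0.74, adjusted p = 9.99e-07). The arms did not overlap in these lines, nor in SCC047, where H2AC6 read 8.81, 9.22 and 9.13 after CTX and 8.63, 8.36 and 8.44 in control (change 0.58, adjusted p = 3.65e-05). They overlapped in SCC61 (change -0.07, adjusted p = 0.597) and in SCC090 (change -0.01, adjusted p = 0.99). In SQ20B the 2 genes of this divergent pair thus changed by 1.35 for H2AC6 and 0.58 for H2BC4, and in 93VU147T by 0.74 for H2AC6 and 1.85 for H2BC4. The difference between the genes was not tested.

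H2BC5 was higher in 5 lines. In SQ20B it read 8.93, 8.76 and 8.87 after CTX, against 7.52, 8.07 and 7.67 in control (change 1.10, 2.15-fold, adjusted p = 4.62e-09). In 93VU147T it read 11.20, 11.16 and 11.17 after CTX, against 10.11, 10.19 and 10.06 in control (change 1.06, adjusted p = 1.31e-08). In SCC25 it read 10.95, 10.91 and 10.96 after CTX, against 10.17, 9.99 and 9.90 in control (change 0.92, adjusted p = 7.49e-07). The changes in SCC61 (0.32, adjusted p = 0.0224) and SCC047 (0.33, adjusted p = 0.0243) were smaller, and the arms of SCC047 overlapped. With 1 array of the line left out, the call held in 3 of 6 fits in SCC61 and in 2 of 6 in SCC047. Both calls were lost under quantile normalization. The SCC61 call was also lost after centring of the arrays and with the mean of the gene's probe sets. The other probe set of the gene read 0.36 in SQ20B, 0.82 in 93VU147T, 0.77 in SCC25, 0.39 in SCC047 and -0.34 in SCC61, the last with the opposite sign.

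**Figure D3:**
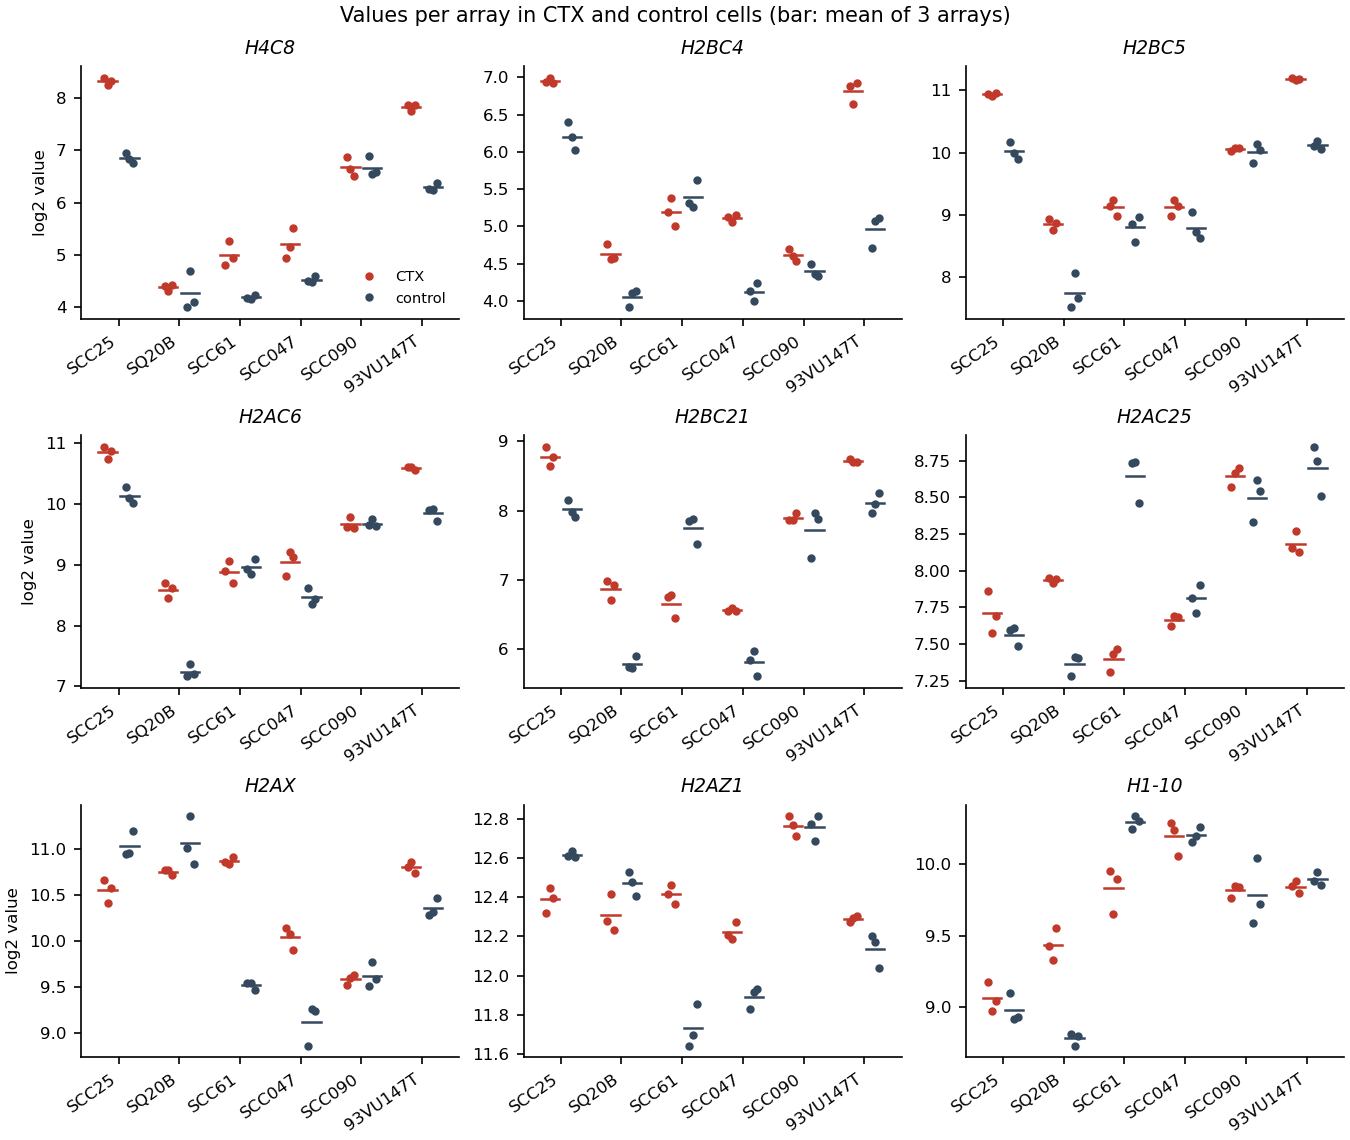
Deposited log2 values of 9 histone genes on each array, CTX left of control within each of the 6 lines, with a bar at each group's mean of 3 arrays. H4C8 in SCC25 lies at 8.25 to 8.38 after CTX, above 6.76 to 6.94 in control, while H2AX in SCC25 lies at 10.41 to 10.67 after CTX, below 10.95 to 11.19 in control.

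H2BC21 and H2AC25, both outside the chromosome 6 clusters, moved in opposite directions between lines. H2BC21 read 6.98, 6.72 and 6.93 after CTX in SQ20B, against 5.74, 5.73 and 5.90 in control (change 1.09, adjusted p = 3.7e-08). It read 6.76, 6.78 and 6.45 after CTX in SCC61, against 7.85, 7.88 and 7.51 in control (change -1.09, SE 0.13, adjusted p = 1.23e-08). The arms were apart in both lines, with CTX above control in SQ20B and below it in SCC61. H2BC21 was also higher in SCC25 (8.92, 8.64 and 8.78 after CTX, against 8.16, 7.99 and 7.91 in control), in SCC047 (6.56, 6.60 and 6.55 after CTX, against 5.85, 5.97 and 5.61 in control) and in 93VU147T (change 0.61, adjusted p = 0.000247). H2AC25 read 7.31, 7.43 and 7.46 after CTX in SCC61, against 8.73, 8.74 and 8.46 in control (change -1.24, SE 0.09, adjusted p = 3.56e-13). In 93VU147T it read 8.15, 8.27 and 8.13 after CTX, against 8.84, 8.75 and 8.51 in control (change -0.52, adjusted p = 2.29e-05). In SQ20B it read 7.95, 7.91 and 7.94 after CTX, against 7.28, 7.41 and 7.41 in control (change 0.57, adjusted p = 6.09e-06). The arms did not overlap in any of these lines, and the mean of H2AC25, -0.17 (adjusted p = 0.000208), became 0.04 without SCC61.

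Among the other members, H2AC8 read 6.92, 6.55 and 6.68 after CTX in SCC25, against 5.97, 5.76 and 5.69 in control (change 0.91, adjusted p = 2.91e-05). In SCC61 it read 5.04, 5.06 and 5.00 after CTX, against 5.74, 5.69 and 5.88 in control (change -0.74, adjusted p = 7.77e-05). H2AC8 thus rose in the line with the lowest survival after CTX and fell in the line with the highest. It did not pass in the other lines, at 0.24 in SQ20B, 0.10 in SCC047, -0.01 in 93VU147T and -0.11 in SCC090. H4C8 and H2AC17 rose in both SCC25 and SCC61, and a link of any member with survival was not tested. The H3 gene H3C7 read 4.52, 4.36 and 4.55 after CTX in SCC047, against 3.53, 3.57 and 3.60 in control (change 0.91, adjusted p = 3.48e-07). H2AC17 was higher in SCC25 (0.51), SCC61 (0.68), SCC047 (0.42) and 93VU147T (0.46), with a mean of 0.35 (SE 0.05, adjusted p = 7.2e-07). H2BC9 was higher in SCC25 (0.42), SCC047 (0.54) and 93VU147T (0.78), with a mean of 0.31. Smaller mean rises were those of H2BC6 (0.20), H2BC12 (0.18), H4C5 (0.17), H2BC12L (0.17) and H2AC14 (0.12). H4C11, which averaged 7.13 over the arrays, was higher in SCC61 (0.48, adjusted p = 0.00365) and SCC047 (0.51, adjusted p = 0.00268). In the dimmer part of the family, H4C4 was lower in SQ20B (-0.33, adjusted p = 0.00784) and higher in 93VU147T (0.70). Its mean change, 0.10, passed in 28 of the 36 fits that each left out 1 array. H2BC11, also dim, was lower in SCC25 (-0.42, adjusted p = 0.0161), a call that held in 3 of 6 fits with 1 array of SCC25 left out. Among the 3 largest rises or falls of a line that did not pass were H3C11 in SQ20B (-0.28), H3C2 in SCC047 (-0.34), and H1-6 (0.26), H4C13 (0.23) and H2BC17 (-0.21) in SCC090.

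Among the 6 H1 genes the only rises were those of H1-2 in SCC25 and H1-6 in 93VU147T. H1-2 was higher in SCC25, at 9.35, 9.12 and 9.21 after CTX against 8.58, 8.48 and 8.48 in control (change 0.71, adjusted p = 0.000638), and lower in SCC61 (change -0.39, adjusted p = 0.0287). The SCC61 call held in 2 of 6 fits with 1 array of the line left out. H1-4 was lower in 93VU147T, at 4.76, 5.01 and 4.99 after CTX against 5.66, 5.65 and 5.53 in control (change -0.70, adjusted p = 0.00891). Its change was negative in all 6 lines, but it passed only there. H1-6, a linker histone of germ cells, was higher in 93VU147T (0.30, adjusted p = 0.0168), a call that held in 4 of 6 fits with 1 array of the line left out. H1-1 was lower in SCC25 (-0.31), where the call held in 3 of 6 such fits, and H1-3 was lower in 93VU147T (-0.44), where it held in 2 of 6. H1-5 passed in no line, with a change of -0.18 in SCC25. Of the 43 replication-dependent genes, 18 reached a group mean of 6 on the log2 scale in at least 1 group, and the other 25, H1-4 and H3C7 among them, lay in the lower part of the deposited range of 2.62 to 14.49 in every group.

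The variant genes are described gene by gene, since they are only 8. In the mean of the 6 lines, 4 were higher (H2AX, H2AZ1, H2AZ2 and H3-3A) and H1-7 was lower, beside 22.8% of all genes higher and 23.1% lower. The counts of higher and lower variants were 0 and 2 in SCC25 (beside 8.66% and 7.3% of all genes), 3 and 2 in SQ20B (18.4% and 14.9%), 3 and 1 in SCC61 (24.4% and 19.8%), 2 and 1 in SCC047 (17.3% and 19.0%), and 2 and 0 in 93VU147T (15.8% and 18.8%), and at an unadjusted p under 0.05 there was 1 higher in SCC25 and 1 lower in 93VU147T. In SCC090, limma called 0 of 8 (beside 0.516% of all genes higher and 0.885% lower), and none had an unadjusted p under 0.05.

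H2AX, whose protein is phosphorylated at DNA breaks, changed most. In SCC61 it read 10.86, 10.83 and 10.91 after CTX, against 9.55, 9.55 and 9.46 in control, and was 2.55-fold higher (change 1.35, SE 0.11, adjusted p = 2.94e-12). In SCC047 it read 10.14, 10.08 and 9.91 after CTX, against 8.86, 9.26 and 9.24 in control (change 0.92, adjusted p = 2.68e-08). In 93VU147T it read 10.80, 10.86 and 10.74 after CTX, against 10.29, 10.31 and 10.47 in control (change 0.45, adjusted p = 0.00117). All CTX arrays lay above control in these lines, whereas they lay below it in SCC25 and SQ20B. In SCC25, H2AX read 10.67, 10.41 and 10.57 after CTX, against 10.95, 10.96 and 11.19 in control (change -0.48, adjusted p = 0.00124). In SQ20B it read 10.77, 10.77 and 10.72 after CTX, against 11.01, 11.36 and 10.84 in control (change -0.32, adjusted p = 0.0189), and this call was lost without replicate 3 of the CTX arm or replicate 2 of the control. The change in SCC090 was -0.04 (adjusted p = 0.939). A dim probe set of H2AX (mean 4.55 over the arrays) stayed near 0 throughout, at -0.10 in SCC047 and -0.155 in 93VU147T, while the remaining 2 had the sign of the kept probe set in all 5 lines that passed. The mean change of H2AX, 0.31, became 0.10 (adjusted p = 0.106) without SCC61.

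H2AZ1, which codes for H2A.Z, a variant found around active start sites, followed the same order of lines at smaller sizes. In SCC61 it read 12.42, 12.46 and 12.37 after CTX, against 11.64, 11.70 and 11.85 in control (change 0.68, SE 0.07, adjusted p = 2.51e-10). In SCC047 it read 12.21, 12.19 and 12.27 after CTX, against 11.83, 11.92 and 11.93 in control (change 0.33, adjusted p = 0.000148). In SCC25 its change was -0.23 (adjusted p = 0.0138), a call lost without replicate 1 of the CTX arm or replicate 2 of the control. The mean of H2AZ1, 0.13, became 0.02 (adjusted p = 0.639) without SCC61. Its close relative H2AZ2 read 11.65, 11.57 and 11.60 after CTX in SCC61, against 11.28, 11.28 and 11.18 in control (change 0.36, adjusted p = 3.43e-05), and changed by 0.44 in 93VU147T (adjusted p = 3.4e-06). Its mean of 0.13 became 0.07 (adjusted p = 0.0582) without 93VU147T. The size depended on the probe set: 2 others of H2AZ2 changed by 1.36 and 1.53 in SCC61 and by 0.87 and 1.03 in SCC047, where the kept probe set changed by 0.12, and their mean changes were 0.46 and 0.58.

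H1-10, a linker histone gene outside the clusters, read 9.43, 9.33 and 9.55 after CTX in SQ20B, against 8.81, 8.73 and 8.80 in control (change 0.65, adjusted p = 8.52e-07). In SCC61 it read 9.95, 9.65 and 9.90 after CTX, against 10.24, 10.34 and 10.30 in control (change -0.46, adjusted p = 8.3e-05). H1-10 thus moved in SQ20B and SCC61 in the directions of H2BC21 and H2AC25. H2AJ was higher in SQ20B (0.39, adjusted p = 0.0121), a call lost without replicate 3 of the CTX arm or replicate 2 of the control. It was lower in SCC047 (-0.49, adjusted p = 0.0015), where another probe set of the gene read 0.20. H3-3A, which codes for the replacement histone H3.3, had a positive change in all 6 lines and a mean of 0.19 (SE 0.05, adjusted p = 0.00135), and passed in SQ20B (0.36, adjusted p = 0.0156). The SQ20B call held in 4 of 6 fits with 1 array of the line left out, and was lost under quantile normalization. The kept probe set of H3-3A averaged 5.98 over the arrays, against 12.64 for the brightest one shared with H3-3B, which changed by 0.15 in SQ20B. The germ cell linker histone genes H1-7 and H1-8 are not known for a role in epithelium. H1-7 changed by -0.46 in SQ20B (adjusted p = 0.00249), where another probe set read 0.22 and the average of its probe sets did not pass, and by -0.17 in the mean, which did not pass without SQ20B, and H1-8 passed in no line. Of the antisense gene and pseudogenes, H2AC5P was lower in SCC61 (-0.34, adjusted p = 0.0449) and in the mean (-0.14, adjusted p = 0.0396), calls that held in 1 of 6 and 18 of 36 fits with 1 array left out, and H1-10-AS1, H1-9P and H4C10P passed nowhere.

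**Figure D4:**
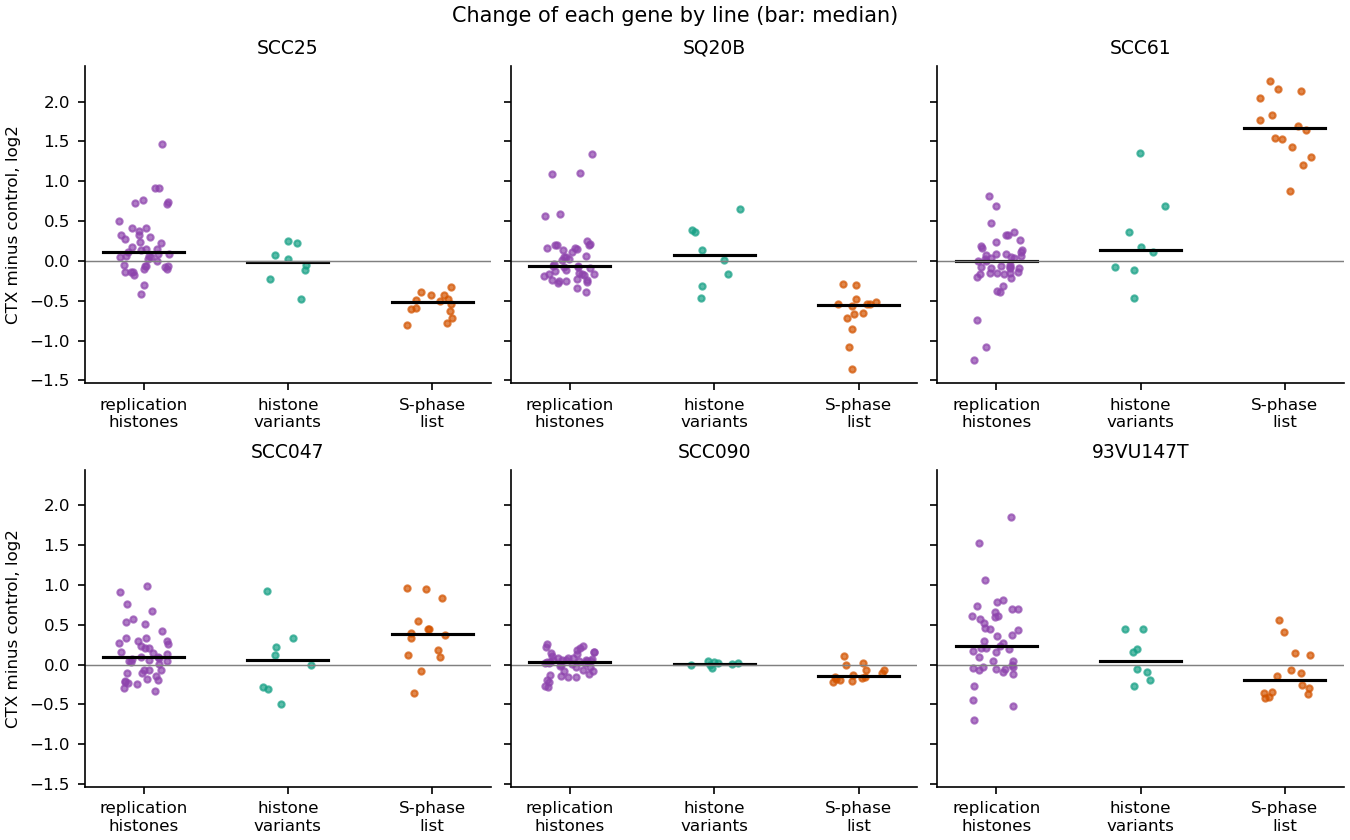
CTX minus control change on the log2 scale of each replication-dependent histone gene (43), variant gene (8) and S-phase gene (14) in the 6 lines, a point per gene with a bar at each set's median. The S-phase medians lie at -0.52 in SCC25, -0.56 in SQ20B and 1.67 in SCC61, while the medians of the replication-dependent genes lie between -0.06 and 0.23 in all lines.

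Because clustered histone genes are transcribed in S phase, 14 genes of DNA replication (MCM2 to MCM7, PCNA, CDC6, CDT1, CCNE2, RRM2, TYMS, CDC45 and GINS2) were read beside them. In SCC25, 0 of 14 were higher by limma (0 also at an unadjusted p under 0.05) and 13 were lower, with a median of -0.52. In SQ20B the counts were the same, with a median of -0.56. In SCC61 all 14 were higher, with a median of 1.67 and a change of 2.26 in MCM3, a subunit of the replicative helicase. In SCC047, 9 were higher and 1 was lower (median 0.39), in 93VU147T 1 was higher and 7 were lower (median -0.20), and in SCC090 limma called 0 of 14, with 0 higher and 4 lower at an unadjusted p under 0.05. Of all genes, 8.66% were higher and 7.3% lower in SCC25, 18.4% and 14.9% in SQ20B, and 24.4% and 19.8% in SCC61. The shares were 17.3% and 19.0% in SCC047, 0.516% and 0.885% in SCC090, and 15.8% and 18.8% in 93VU147T. Of the lines where most replication-dependent histone genes that passed were higher, SCC25, SQ20B and 93VU147T had more S-phase genes lower than higher, and SCC047 had more of them higher. In SCC61 the replication-dependent genes split evenly while all S-phase genes were higher. H2AX and H2AZ1 had the sign of the S-phase median in SCC25, SQ20B, SCC61 and SCC047 and the opposite sign in 93VU147T (0.45 for H2AX and 0.15 for H2AZ1, a change that did not pass). In the mean, 6 of 14 were higher (42.9%, against 22.8% of all genes) and 2 lower (14.3%, against 23.1%). CCNE2 (0.31), a cyclin of S-phase entry, and TYMS (0.26), which makes thymidylate, had the largest mean changes. Whether the share of cells in S phase has a part in the histone changes was not tested.

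Of 13 genes that transcribe, process or degrade histone mRNA, 0 were higher and 2 lower in SCC25 by limma (0 and 5 at an unadjusted p under 0.05), 0 and 6 in SQ20B (0 and 7 unadjusted), 6 and 1 in SCC61, 8 and 1 in SCC047, and 7 and 2 in 93VU147T. SLBP, the stem-loop binding protein, was lower in SCC25 (-0.34) and SQ20B (-0.51) and higher in SCC61 (0.32) and SCC047 (0.33), while its changes in SCC090 (0.02) and 93VU147T (-0.08) did not pass. The largest mean changes were those of CPSF3, the nuclease that cuts histone pre-mRNA (0.27), and NPAT (0.20), whose rise passed in SCC61 alone among the lines (0.96). Of 18 histone chaperones and exchange factors, 0 were higher and 6 lower in SCC25 (0 and 7 unadjusted), 1 and 9 in SQ20B, 13 and 1 in SCC61, 12 and 2 in SCC047, and 6 and 5 in 93VU147T. CHAF1A and ASF1B, which deliver new histones behind the replication fork, changed by 1.53 and 1.60 in SCC61, and the largest mean change was that of ANP32E, a chaperone that removes H2A.Z (0.41). In SCC090, limma called none of the 13 mRNA-processing genes (0 unadjusted) and 1 of the 18 chaperones, CHAF1B, which was lower (-0.32). Of all genes, 1.4% were called in SCC090.

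Polyadenylated histone transcripts are known from differentiating cells, and 13 keratinocyte differentiation genes were therefore read as well. The counts of higher and lower genes were 5 and 0 in SCC25, 2 and 0 in SQ20B, 8 and 1 in SCC61, 3 and 0 in SCC047, 4 and 0 in SCC090, 2 and 1 in 93VU147T and 9 and 0 in the mean, and where limma called 0 lower, an unadjusted p under 0.05 gave 2 in SCC047 and 0 elsewhere. Higher genes made up 38.5% in SCC25 (8.66% of all genes), 15.4% in SQ20B (18.4%), 61.5% in SCC61 (24.4%) and 23.1% in SCC047 (17.3%). They made up 30.8% in SCC090 (0.516%), 15.4% in 93VU147T (15.8%) and 69.2% in the mean (22.8%). The shares in SQ20B and 93VU147T thus did not exceed those of all genes. KRT13, a keratin of stratified mucosa, had the largest mean change (1.36, adjusted p = 1.77e-10), followed by involucrin (IVL, 0.79) and the cross-linking enzyme TGM1 (0.79). The count in SCC090 was 1 without replicate 1 of its control, which stood apart in KRT13 (9.17, against 11.13 and 11.13 in the other control arrays), and the SCC090 change of KRT13 was then 0.86, against 1.51 with it. The count in SCC25 was 1 without replicate 1 of the CTX arm or replicate 2 of the control. Whether differentiation has a part in the histone changes was not tested.

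A further measure that moved with treatment was the difference between the 3′ and 5′ probe sets of ACTB, which reads how far cDNA was extended. It averaged 0.564 after CTX in SQ20B, against 0.275 in control, 0.323 after CTX in SCC25, against 0.256 in control, and 0.400 after CTX in SCC047, against 0.289 in control, and the arms were apart in these lines. The same difference for GAPDH was apart in SQ20B (0.132 after CTX, against 0.057 in control) and SCC047 (0.151 after CTX, against 0.111 in control). Marker lists of other cell types also moved. The largest differences were a fibroblast list of 6 genes at 6.95 after CTX in SCC25, against 6.48 in control, and at 5.19 after CTX in SQ20B, against 4.76 in control, a leukocyte list of 4 genes at 4.83 after CTX in SCC61, against 5.34 in control, and a squamous list of 4 genes at 10.64 after CTX in 93VU147T, against 10.01 in control, and at 10.14 after CTX in SCC090, against 9.62 in control. The part of these differences in the histone values was not tested.

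Histone coding sequences are closely alike, and many probe sets read several genes at once. Of the histone probe sets, 73 were annotated to 1 gene and 28 to several, and 20 histone genes, H3-3B among them, were measured on shared probe sets only. Even among the 55 kept probe sets, 8 were of the type that may cross-hybridize and 8 of the type that matches related transcripts, so values of single genes of this family are uncertain where copies are near-identical. The shared probe sets of H3-3A and H3-3B did not run together in SCC61, where the 4 that are also annotated to the pseudogene H3P6 changed by 0.23 to 0.38 and the other 4 by -0.34 to -0.595. Nor did they in SQ20B, where the former changed by 0.07 to 0.15 and the latter by -0.21 to -0.48. The 20 shared probe sets of replication-dependent genes are given as a description. Their CTX change was positive for 18 in SCC25, 12 in SQ20B, 12 in SCC61, 17 in SCC047, 13 in SCC090 and 18 in 93VU147T, and the medians were 0.46 in SCC25, 0.13 in SQ20B, 0.07 in SCC61, 0.29 in SCC047, 0.06 in SCC090 and 0.47 in 93VU147T. Of the shared probe sets annotated to the same 14 H4 genes, the brightest moved apart from the others. It averaged 10.87 ± 0.24 after CTX in SCC61 and 9.15 ± 0.32 in control (SD, n = 3 each), a difference of 1.72, and 9.49 ± 0.22 after CTX in SCC25 and 10.22 ± 0.14 in control, a difference of -0.73. It also changed by -0.54 in SQ20B, -0.49 in 93VU147T, 0.05 in SCC047 and 0.02 in SCC090. Its sign was that of the S-phase median in SCC25, SQ20B, SCC61, 93VU147T and SCC047, and not in SCC090. The other probe sets annotated to these 14 genes changed by 0.13 to 0.46 in SCC25 and by 0.21 to 0.885 in 93VU147T. A shared probe set of H2B genes changed by -1.44 in SCC61.

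Whether the CTX change differed among the 6 lines was asked with an F test. It did for 26 of the 43 replication-dependent genes (60.5%) and for 5 of the 8 variants, close to the 59.0% of all genes. The smallest adjusted p-values were those of H2AC25 (2.12e-12), H2AX (5.62e-12), H2BC4 (3.29e-11) and H2BC21 (5.48e-11). H2BC12 had an adjusted p of 0.435 and H3-3A of 0.59, which does not show that their changes were alike.

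Between the HPV-negative and the HPV-positive lines, the CTX change was higher in HPV-negative lines for 2 of the 43 replication-dependent genes (4.65%, against 22.3% of all genes) and lower for 10 (23.3%, against 14.9%). After centring of the arrays, which shifted the median of all genes by -0.13, the counts were 0 and 22, and the share of higher genes among all called genes was 28.2% centred, against 60.0% as deposited. Under quantile normalization the counts were 1 and 13, and that share was 48.2%. H2BC4 differed most, by -0.65 (SE 0.09, adjusted p = 8.97e-07), from changes of 0.74, 0.58 and -0.20 in SCC25, SQ20B and SCC61 and of 0.99, 0.22 and 1.85 in SCC047, SCC090 and 93VU147T. These values overlap, so the difference does not hold line by line. H2BC5 (0.30, adjusted p = 0.0114) and H2AC6 (0.23, adjusted p = 0.0318) were the genes with the larger change in HPV-negative lines, and among variants H2AJ (0.41) and H1-8 (0.29) were higher and H2AX lower (-0.26). With 3 lines on each side, HPV status and every other difference between these lines cannot be told apart.

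In untreated cells, 20 of the 43 replication-dependent genes were higher in the HPV-positive lines (46.5%, against 31.5% of all genes) and 4 were lower (9.3%, against 26.0%). Centring of the arrays shifted the median of all genes by -0.14 and gave 12 and 12, with 30.8% of all called genes higher, against 54.8% as deposited. Quantile normalization gave 18 and 5, with 48.9% of all called genes higher. The largest differences were those of H1-2 (1.05, SE 0.08, adjusted p = 1.18e-12), H2AC17 (0.94, adjusted p = 1.14e-13) and H2BC12 (0.87, SE 0.06, adjusted p = 1.63e-14). H2BC12 averaged 12.28 ± 0.08 in 93VU147T, 11.60 ± 0.03 in SCC090 and 10.17 ± 0.33 in SCC047, against 11.80 ± 0.03 in SCC25, 9.95 ± 0.21 in SQ20B and 9.69 ± 0.02 in SCC61 (SD, n = 3 each), and 10.26 ± 0.04 in HaCaT. SCC25 thus lay among the HPV-positive lines and SCC047 near the HPV-negative ones, and SCC047 and SQ20B differed by less than their spread.

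H4C8 had the same order of lines in part. It averaged 6.67 ± 0.19 in SCC090, 6.29 ± 0.07 in 93VU147T and 4.53 ± 0.06 in SCC047, against 6.85 ± 0.09 in SCC25, 4.27 ± 0.38 in SQ20B and 4.19 ± 0.05 in SCC61, with 6.09 ± 0.01 in HaCaT. SCC25 and SCC090 did not differ beyond their spread, and SQ20B differed beyond it neither from SCC047 nor from SCC61. H2AX ran the other way, at 10.36 ± 0.10 in 93VU147T, 9.62 ± 0.14 in SCC090 and 9.12 ± 0.22 in SCC047, against 11.07 ± 0.27 in SQ20B, 11.04 ± 0.14 in SCC25 and 9.52 ± 0.05 in SCC61 (difference -0.84, SE 0.06, adjusted p = 8.89e-14), with 11.03 ± 0.07 in HaCaT. SQ20B, SCC25 and HaCaT stood together at the top, and SCC61, in which H2AX rose most after CTX, lay with SCC090 and SCC047 at the bottom. Of the S-phase genes, 13 of 14 were higher in the untreated HPV-positive lines (92.9%, against 31.5% of all genes). The remaining 1 was lower (7.14%, against 26.0%), and the median was 1.07. The part of this in the histone levels was not tested.

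**Figure D5:**
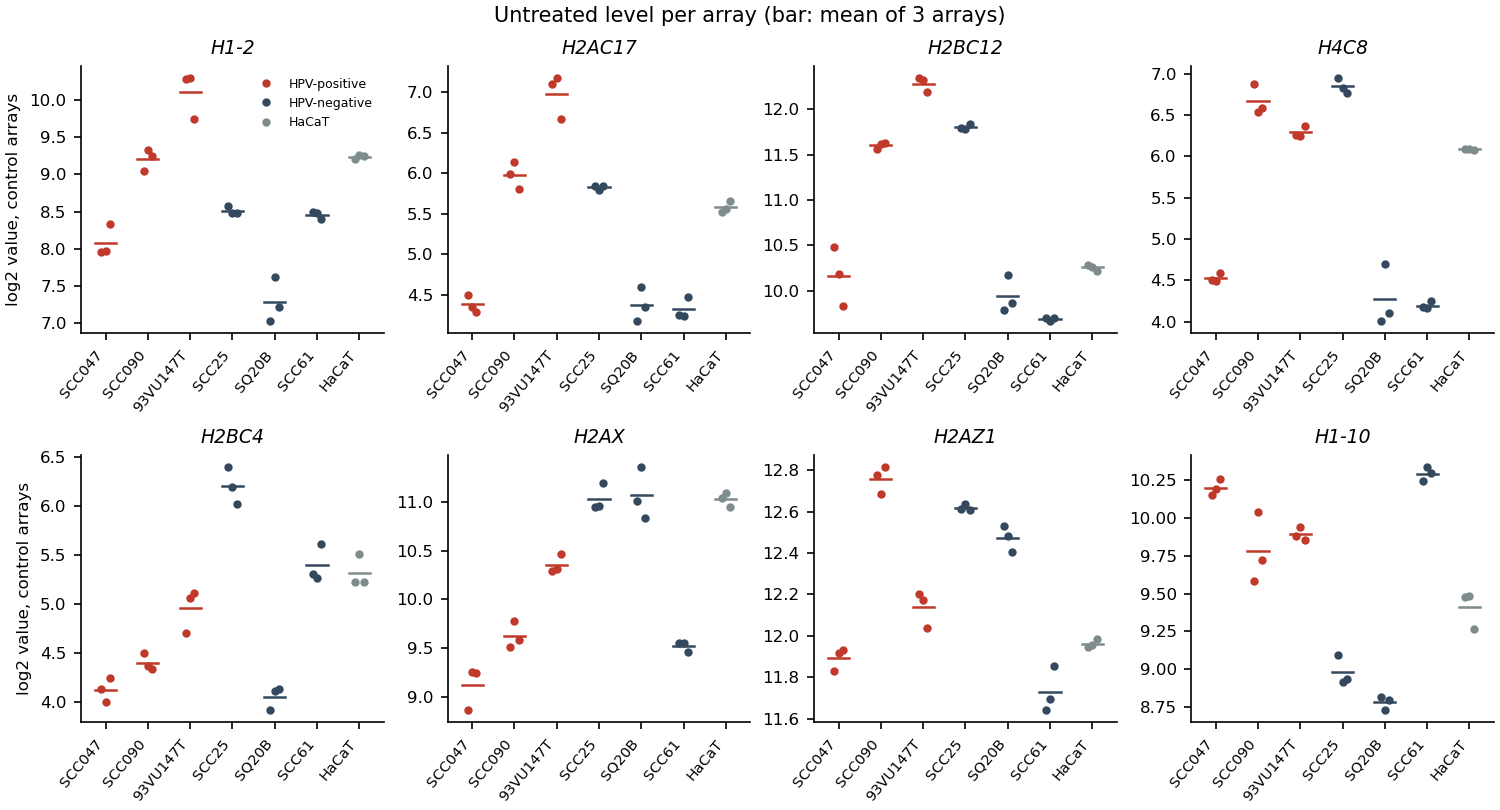
Deposited log2 values of 8 histone genes on each control array, with the 3 HPV-positive lines on the left, the 3 HPV-negative lines beside them and HaCaT on the right, and a bar at each mean. SCC25 lies with SCC090 and 93VU147T in H4C8 (6.85, 6.67 and 6.29), and H2AX is lowest in SCC047 (9.12).

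The spread of a gene between the control means of the lines, from the lowest to the highest, had a median of 0.825 over the 43 replication-dependent genes and ran from 0.187 to 3.279. It was largest for H2AC8, which averaged 7.41 ± 0.44 in 93VU147T, 5.81 ± 0.07 in SCC090 and 4.28 ± 0.15 in SCC047, against 5.81 ± 0.15 in SCC25, 5.77 ± 0.10 in SCC61 and 4.13 ± 0.06 in SQ20B. SCC090, SCC25 and SCC61 did not differ beyond their spread. The 8 variants had a median spread of 0.812, with the largest, 1.949, in H2AX. SCC1, measured after CTX only, averaged 11.27 ± 0.09 in H2AX, 5.34 ± 0.11 in H4C8 and 9.41 ± 0.12 in H2BC5 (SD, n = 3 each), and no change can be given for it.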

How the data were processed

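RNA of 42 samples in 14 groups of 3 was measured on Affymetrix Human Genome U133 Plus 2.0 arrays. The deposited values are log2 expression values that the authors made with frozen robust multi-array analysis (fRMA 1.16.0 per the labels). The methods also name a batch correction, permuted surrogate variable analysis, and whether the deposited values passed through it is not stated. This could affect the measurements, since a correction that knows the treatment can narrow the spread between arrays.

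Of 54675 probe sets, 62 controls were left out, 41091 were annotated to 1 gene, 1801 to several and 11721 were unlisted in the annotation used here. Gene identifiers matched a current symbol for 41037 probe sets. Where a gene had several such probe sets, the brightest on average over all 42 arrays was kept, which gave 19775 genes with no filter on dim values. The 36 arrays of the 6 lines with both arms were fitted in limma 3.58.1 (R 4.3.3) with 12 group means, and eBayes used 24 residual and 6.86 prior degrees of freedom. Contrasts were CTX minus control by line and in the mean, the difference of that change between HPV-negative and HPV-positive lines, the F test among lines, and HPV-positive minus HPV-negative control levels. P-values were adjusted after Benjamini-Hochberg over all 19775 genes, and "higher", "lower" and "passed" mean an adjusted p under 0.05. The fit was tested on simulated data.

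Genes are named with values where they are variants, were higher or lower in 3 or more lines, passed in the mean with 1 sign in all lines, or were among the 3 largest rises and falls of a line, and genes of the other lists where their mean change was among the largest. H1-2 and, among the other lists, SLBP, MCM3, CHAF1A, CHAF1B and ASF1B were named after their values were seen. The members and lists were chosen with earlier results of these data known. Alternatives covered probe set choice, dim values, scaling, replicate block, all 42 arrays, batch, moderation, a minimum change, and leaving out arrays or lines.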

Additional observations from a re-analysis of the deposited data

Results flagged for a closer look

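A total of 15 histone genes differed in their CTX change between HPV-negative and HPV-positive lines by the test of that difference, and all values are HPV-negative minus HPV-positive change on the log2 scale. They were 27.9% of the replication-dependent and 37.5% of the variant genes, beside 37.2% of all genes, so the family was not called more often than other genes. The change was larger in HPV-negative lines for H2AJ (0.41), H2BC5 (0.30), H1-8 (0.29) and H2AC6 (0.23). It was smaller in HPV-negative lines for the H2A and H2B genes H2BC4 (-0.65), H2BC9 (-0.29), H2BC6 (-0.28), H2BC21 (-0.27) and H2AC16 (-0.25), for the H3 and H4 genes H3C8 (-0.38), H3C7 (-0.30), H3C6 (-0.29) and H4C4 (-0.22), and for H1-1 (-0.28) and H2AX (-0.26). H2BC5 and H3C6 changed sign with another probe set of the gene, to -0.12 and 0.27. With 1 array left out, the call held in 15 of 36 fits for H2AC16, 19 for H2BC21, 28 for H2AC6, 31 for H1-8 and H4C4 and 33 for H3C6, and in all 36 for the others. It was lost for H2BC21 with a batch term, and after centring of the arrays for H2AC6, H2BC5 and H1-8. The spread between arrays, and not that between lines, sets the error of this test.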

How the results depend on the processing

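Counts below are protein-coding histone genes called of 51. Of 106 counts under alternatives, 97 stayed within 1.5 times the reported one. Requiring a change of at least 0.5 gave 8 in SCC25 (18 without it), 6 in SQ20B (11), 7 in SCC61 (16), 8 in SCC047 (16), 16 in 93VU147T (26), 4 in the mean (24), 1 for the HPV difference in change (15) and 14 for untreated levels (28), since it drops small changes by construction. Centring each array on its median gave 26 for the HPV difference (15 as deposited), and the cause was not tested. Leaving out 1 array gave 12 to 16 in SCC25, 10 to 14 in SQ20B, 12 to 14 in SCC61, 13 to 18 in SCC047, 0 in SCC090, 23 to 25 in 93VU147T, 22 to 25 in the mean, 29 to 33 for the F test, 12 to 17 for the HPV difference and 26 to 29 for untreated levels. With only genes reaching 6 on the log2 scale in some group (12412 genes), 13 replication-dependent genes were higher in 93VU147T (21 without the filter).

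With the replicate number as a block the counts were 19 in SCC25, 14 in SQ20B, 16 in SCC61, 18 in SCC047, 0 in SCC090, 26 in 93VU147T, 24 in the mean, 32 for the F test, 17 for the HPV difference and 28 for untreated levels. Of 18 pairs of same-numbered arrays, 7 deviated together (r over 0.1), with r from -0.15 to 0.32, and the correlation within blocks was 0.081. These values do not settle whether the numbers pair the samples. In SQ20B, a batch term and leaving out replicate 3 of the control are the same fit, and gave 1.33 for H2AC6, 1.06 for H2BC5, 1.14 for H2BC21 and -0.44 for H2AX.

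Of 88 calls of a member in a line, 57 held under every alternative other than the minimum change, 28 were lost when some array was left out, and 3 changed sign under another rule for the probe set (H2BC5 and H3C6 in SCC61, H2AJ in SCC047). Of the 30 calls of genes with several probe sets, 8 had at least 1 probe set of the opposite sign, the others being H2AX in SCC25 (0.002), SCC047 (-0.097) and 93VU147T (-0.155), and H1-7 (0.216) and H2AC25 (-0.026) in SQ20B. The mean of H2AC25 became 0.04 without SCC61 and that of H4C4 -0.01 without 93VU147T. No measure of signal over background was used, so for the 25 dim replication-dependent genes it is not known which values lie above background.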
